A study of Mus musculus with 9 samples.

Results

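Apart from Adam19, a related sheddase, the genes described here encode proteases, or subunits of a protease complex, that cut Notch receptors. The cuts fall on the way to the cell surface and after ligand binding. The members are Furin, the sheddases Adam10, Adam17 and Adam19, and 4 genes of the gamma-secretase complex, Psen2, Ncstn, Aph1a and Psenen. These 8 genes of 18193 with a probe set of their own were chosen by name, with earlier results of these data known, and Adam19 was included because of its strong rise. A probe set was counted for a member when the platform annotation gives it exactly 1 gene symbol and that symbol, current or older, is the member's. All 8 are represented, by 18 probe sets, and the gene level is the log2 value of the probe set with the highest mean over the 9 arrays.

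Expression was measured on 9 Affymetrix mouse arrays, 3 for each of the labels Control, NIC Tumor and Abnormal non-malignant. The series title names T-ALL, a leukemia of T cell precursors, and overexpression of NOTCH1 with non-malignant effects. The RNA came from sorted cells. The labels used here give no genotype, strain, age, treatment or sorted population, and do not spell out NIC. Nothing in them says that arrays of a group came from separate animals or tumors, so the p-values below measure only the spread between these samples.

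Notch is a receptor that must be cut several times before it can signal. In the secretory pathway a furin-type convertase cuts it into the heterodimer found at the surface. After ligand binding, ADAM10 removes the ectodomain, whereas ADAM17 is best known for ligand-independent cleavage and for the shedding of tumor necrosis factor and L-selectin. Gamma-secretase, made of a presenilin, nicastrin, an APH-1 protein and PEN-2, then cuts within the membrane and frees the intracellular domain, which acts in the nucleus and needs no further cleavage. This pathway drives T lineage commitment in the thymus.

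Some arrays stood apart from the rest of their group. On NIC Tumor 3 the values were less spread than elsewhere, with an SD of 1.97 where the remaining arrays had 2.12 to 2.19. Its bioB spike-in control stood at 10.67, and that of the remaining arrays at 7.22 to 9.05. Its 18S ribosomal RNA control was also the highest, at 11.8, against 5.48 to 9.01. Abnormal non-malignant 2 and 3 resembled each other most, since their gene-by-gene differences had an SD of 0.16 and those of the next closest pair 0.3. Abnormal non-malignant 1 had the largest gap between the 3′ and 5′ Gapdh control probe sets, 0.75, against −0.16 to 0.44 on the others. The same gap for actin was 0.38 on this array and was largest on Control 2, at 0.46. The T cell genes Cd3e, Cd3g and Cd3d were bright on all 9 arrays, between 11.49 and 13.26.

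Adam19, also called meltrin beta, is a membrane metalloprotease known for the shedding of neuregulins. It stood far higher in both groups with abnormal cells than in controls. The controls gave log2 values of 5.9, 6.47 and 6.3. Abnormal non-malignant arrays 1, 2 and 3 gave 10.27, 11.3 and 11.33, and NIC Tumor arrays 1, 2 and 3 gave 12.39, 9.73 and 11.6. Every array of both groups thus lay above every control, while the non-malignant and tumor arrays overlapped, with both the highest and the lowest of these 6 values in tumors. The control mean was 6.22 ± 0.29, that of non-malignant samples 10.97 ± 0.61 and that of tumors 11.24 ± 1.37 (log2, SD, n = 3 each).

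The difference from controls was 4.75 in non-malignant samples, a ratio of 26.8, and 5.02 in tumors, a ratio of 32.4. Since Adam19 was chosen for this rise, these values are a description and carry no test. Ranked from the largest rise down, without regard to large falls, it was the 10th of 13296 tested genes in non-malignant samples and the 5th in tumors. Tumors and non-malignant samples differed by 0.27. With any 1 array left out, the differences from controls lay between 4.56 and 5.1 and between 4.44 and 5.77. That between tumors and non-malignant samples ran from −0.3 without NIC Tumor 1 to 1.03 without NIC Tumor 2, and thus had no settled direction. Both comparisons with controls share the same 3 control arrays.

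**Figure D1:**
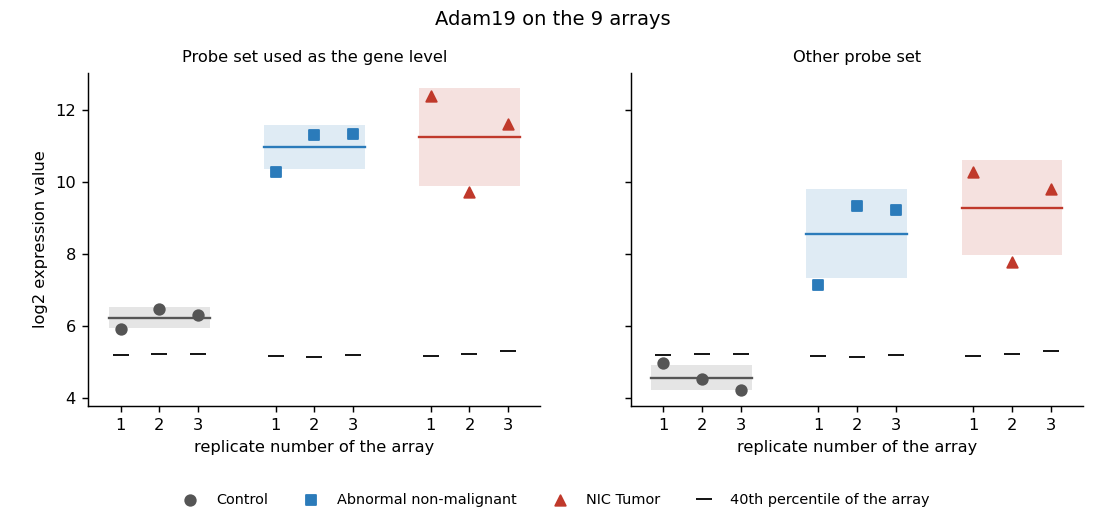
Adam19 log2 values (y axis) on the 9 arrays (x axis, replicate number within each group) for its 2 probe sets. Points are arrays, lines are group means and bands are SDs (n = 3), and dashes mark the 40th percentile of each array. Non-malignant and tumor arrays sit above all controls in both panels, and the controls of the other probe set lie under the 40th percentile.

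The other Adam19 probe set showed the same order at a lower level. It gave 4.95, 4.51 and 4.22 in controls, 7.14, 9.33 and 9.21 in non-malignant samples, and 10.28, 7.78 and 9.8 in tumors. All 3 controls lay under the 40th percentile of their array, a range in which signal and background cannot be separated here. Set against that level, the probe set was at least 3.36 higher in non-malignant samples and at least 4.09 higher in tumors (log2). Abnormal non-malignant 1 was the lowest of its group on both probe sets. NIC Tumor 2 was the lowest tumor on both. Abnormal non-malignant 1 is also the array with the largest Gapdh gap given above, though not the largest actin gap. The part of these gaps in the Adam19 values was not tested.

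Genes that Notch is known to induce did not share a single low tumor. Of 9 Notch target genes, 5 were lowest among the tumors on NIC Tumor 2, as Adam19 was (Dtx1, Hes1, Heyl, Il2ra and Nrarp), 2 on NIC Tumor 1 (Hey1 and Myc) and 2 on NIC Tumor 3 (Notch3 and Ptcra). Hes1, a transcriptional repressor, gave 10.14, 8.92 and 10.02 on NIC Tumor 1, 2 and 3, against 6.31 to 6.5 in controls. Dtx1, a ubiquitin ligase of the Notch pathway, gave 13.06, 12.29 and 13.02, against 7.96 to 8.08 in controls. Ptcra, the pre-T cell receptor alpha chain, gave 10.3, 7.39 and 6.39. Notch1 itself gave 12.92, 9 and 10.81 at the gene level, where NIC Tumor 2 lay under all 3 controls, at 9.81, 10 and 10.34. Its other probe set gave 12.13, 9.57 and 11.09 in tumors, all above the controls, at 9.53, 9.14 and 9.5. Of the 9 targets, 7 rose in each group against controls, where 2.87% of all genes rose in non-malignant samples and 8.48% in tumors. From non-malignant samples to tumors 1 of them rose and 2 fell, where 1.53% of all genes rose and 2.7% fell.

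The tested genes whose levels followed Adam19 most closely over the 9 arrays were Rundc3b (Pearson r = 0.99), Wdr25 (0.986) and Cd82 (0.981). Cd82 encodes a tetraspanin of the plasma membrane. It gave 8.58 to 8.73 in controls, 12, 12.73 and 12.79 in non-malignant samples, and 12.74, 10.62 and 12.47 in tumors. Like Adam19, all 3 genes were lowest among the tumors on NIC Tumor 2. These correlations describe 9 arrays that share 3 groups, and any gene high in both abnormal groups and low in controls would score highly.

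RefSeq gives 3 start sites for Adam19, all on chromosome 11 (GRCm38.p6, plus strand), and their promoters are shown because this gene had the largest differences among the members. Each sequence runs from 250 bases before to 50 bases after a start. They were searched on both strands for TGGGAA, the core letters bound by the Notch partner RBPJ, and for CACGTG, the E-box bound by Myc, which share no bases in these promoters. Capitals mark the matches. The first lies at chr11:46054252-46054551, the second at chr11:46055734-46056033 and the third at chr11:46127654-46127953.
Adam19 start 1: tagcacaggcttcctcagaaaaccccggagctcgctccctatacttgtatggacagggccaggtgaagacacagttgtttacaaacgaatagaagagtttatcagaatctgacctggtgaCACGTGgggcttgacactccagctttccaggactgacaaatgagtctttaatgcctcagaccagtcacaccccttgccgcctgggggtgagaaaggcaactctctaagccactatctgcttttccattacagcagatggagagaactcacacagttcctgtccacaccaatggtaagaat
Adam19 start 2: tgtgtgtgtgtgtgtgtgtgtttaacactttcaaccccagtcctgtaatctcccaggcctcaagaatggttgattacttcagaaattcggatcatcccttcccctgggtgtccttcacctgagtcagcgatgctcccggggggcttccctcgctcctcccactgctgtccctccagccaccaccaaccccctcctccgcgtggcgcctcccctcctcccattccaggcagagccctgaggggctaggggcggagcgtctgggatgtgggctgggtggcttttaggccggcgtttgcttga
Adam19 start 3: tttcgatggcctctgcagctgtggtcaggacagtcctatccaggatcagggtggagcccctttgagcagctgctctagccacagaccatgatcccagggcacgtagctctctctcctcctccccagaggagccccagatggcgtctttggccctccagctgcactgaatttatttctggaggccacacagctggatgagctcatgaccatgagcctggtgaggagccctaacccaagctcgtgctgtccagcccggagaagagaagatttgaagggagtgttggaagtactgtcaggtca
None of the 3 holds TGGGAA, and start 1 holds CACGTG, 130 bases before the start. Among all 32851 promoters of the table, 25.6% hold TGGGAA and 7.15% hold CACGTG. Across the 13 promoters listed for the 8 members, 3 hold each motif. A match or its absence in this window says nothing about binding.

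Against controls, no other member passed the test in either group. A linear model was fitted with limma to all 13296 genes tested, and a gene was called at a Benjamini-Hochberg adjusted p under 0.05. In non-malignant samples 0 of the 7 members other than Adam19 were called, where 3.53% of all genes were, and 0 of 7 had an unadjusted p under 0.05, where 13.3% of all genes did. In tumors 0 of 7 were called, where 15.7% of all genes were, and 2 of 7 had an unadjusted p under 0.05, where 32.2% of all genes did. Tumors against non-malignant samples also gave 0 of 7 called, where 4.23% of all genes were, and 4 of 7 at an unadjusted p under 0.05, where 25.9% of all genes were. Without NIC Tumor 1, limma called 2 of the 7 lower in tumors, Adam10 and Adam17, in both comparisons that involve tumors. In that fit 31.1% of all genes were called for tumors against controls and 25.7% against non-malignant samples, so 2 of 7 is near the share of all genes.

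The 7 members differed from controls by −0.06 to 0.62 in non-malignant samples (median 0.16, against 0.01 for all genes) and by −0.97 to 0.42 in tumors (median −0.3, against 0.06). From non-malignant samples to tumors the differences were −1.2 to 0.24 (median −0.39, against 0.03). Between non-malignant samples and controls the groups overlapped for all 7, while over all genes 26.1% did not overlap (17% higher and 9.15% lower). Tumors lay under controls without overlap for 1 of 7, Psenen, against 14.3% of all genes (32.5% in either direction). Tumors lay under non-malignant samples without overlap for 3 of 7, Adam17, Furin and Psenen, against 14.8% of all genes (27.1% in either direction).

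**Figure D2:**
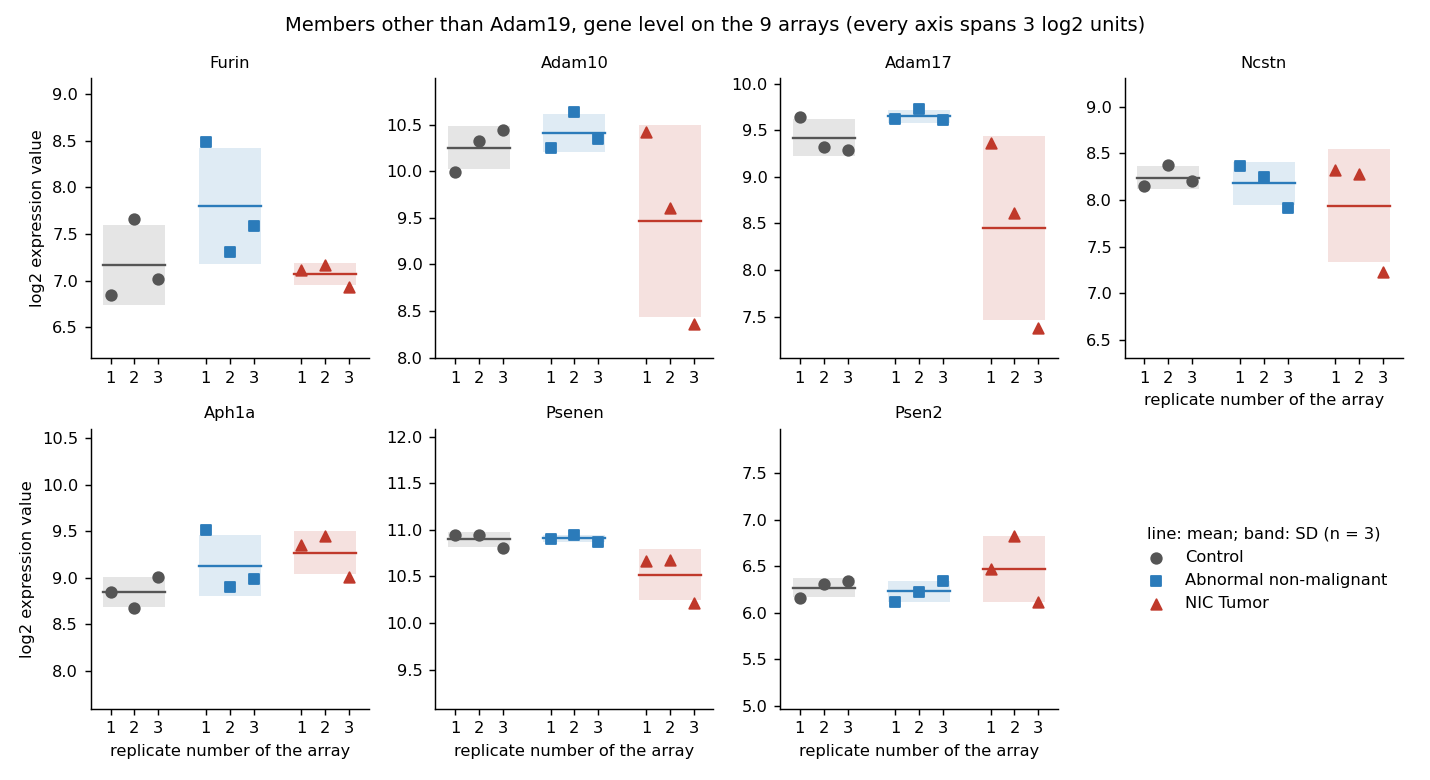
Log2 values (y axis) of the 7 members other than Adam19 on the 9 arrays (x axis, replicate number within each group). Points are arrays, lines are group means and bands are SDs (n = 3). At the gene level shown, NIC Tumor 3 is the lowest array in 5 of the 7 panels, and the controls and non-malignant arrays overlap in every panel.

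Furin, the convertase, was measured by 1 probe set and was highest on a single non-malignant array. It gave 6.85, 7.66 and 7.02 in controls, 8.49, 7.31 and 7.59 in non-malignant samples, and 7.11, 7.17 and 6.93 in tumors. All tumors lay under all non-malignant arrays, and the non-malignant arrays overlapped with controls. The difference of non-malignant samples from controls was 0.62 (95% interval −0.07 to 1.32, limma adjusted p = 0.458), and it was 0.28 without Abnormal non-malignant 1. Tumors differed from controls by −0.11 (−0.8 to 0.59, adjusted p = 0.838) and from non-malignant samples by −0.73 (−1.42 to −0.04, adjusted p = 0.177).

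Adam10, the ligand-dependent Notch sheddase, was near the control level in non-malignant samples and spread widely among tumors. Its gene level was 9.99, 10.32 and 10.44 in controls and 10.25, 10.63 and 10.35 in non-malignant samples. The tumors gave 10.42, 9.6 and 8.36, from the level of controls on NIC Tumor 1 to the lowest value of all arrays on NIC Tumor 3. Non-malignant samples differed from controls by 0.16 (95% interval −0.79 to 1.1, limma adjusted p = 0.974). Tumors differed from controls by −0.79 (−1.74 to 0.15, adjusted p = 0.226), by −0.24 without NIC Tumor 3 (adjusted p = 0.587) and by −1.27 without NIC Tumor 1 (adjusted p = 0.0206). From non-malignant samples they differed by −0.95 (−1.89 to −0.01, adjusted p = 0.191), by −0.4 without NIC Tumor 3 and by −1.43 without NIC Tumor 1 (adjusted p = 0.0169).

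Adam17, the tumor necrosis factor sheddase, was likewise lowest on NIC Tumor 3 and near the control level on NIC Tumor 1. Its gene level was 9.64, 9.32 and 9.29 in controls, 9.62, 9.73 and 9.61 in non-malignant samples, and 9.36, 8.61 and 7.38 in tumors. All 3 tumors lay under all non-malignant arrays, and NIC Tumor 1 lay within the range of controls. The difference from controls was 0.23 in non-malignant samples (95% interval −0.67 to 1.13, limma adjusted p = 0.946) and −0.97 in tumors (−1.87 to −0.07, adjusted p = 0.131). The latter was −0.44 without NIC Tumor 3 (adjusted p = 0.259) and −1.42 without NIC Tumor 1 (adjusted p = 0.011). Tumors differed from non-malignant samples by −1.2 (−2.1 to −0.3, adjusted p = 0.112), by −0.67 without NIC Tumor 3 and by −1.66 without NIC Tumor 1 (adjusted p = 0.00821).

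The other probe sets of both genes did not all follow the gene level. For Adam10 the second probe set by mean gave 6.16 on Abnormal non-malignant 1 and 8.6 and 8.37 on arrays 2 and 3, and the third gave 6.55, 8.36 and 8.07. In tumors the second gave 8.49, 7.3 and 6.61, lowest on NIC Tumor 3 as at the gene level. The third stood at 7.92, 7.5 and 7.66 in tumors, with no low value on NIC Tumor 3, and the fourth lay under the 40th percentile on all 9 arrays. With the mean of all probe sets as the gene level, the difference of Adam10 between tumors and controls was −0.19, against −0.79. The tumors gave 9.13, 8.27 and 8.41 on the second Adam17 probe set and 8.62, 7.64 and 7.79 on the third, with NIC Tumor 2 the lowest tumor on each. For Adam17 the other probe sets varied most among controls, with 10.11, 8.39 and 9.05 on the second and 9.57, 7.02 and 7.98 on the third. Control 1, the highest array on both, had a 3′ to 5′ Gapdh gap of −0.09, against 0.44 and 0.43 on Control 2 and 3. Abnormal non-malignant 1, the lowest array on Adam10 probe sets 2 and 3, had the Gapdh gap of 0.75 and an actin gap of 0.38. The part of these 3′ to 5′ gaps in the probe set values was not tested. All 3 Adam17 probe sets had a lower mean in tumors than in controls, and 2 of 4 Adam10 probe sets did.

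**Figure D3:**
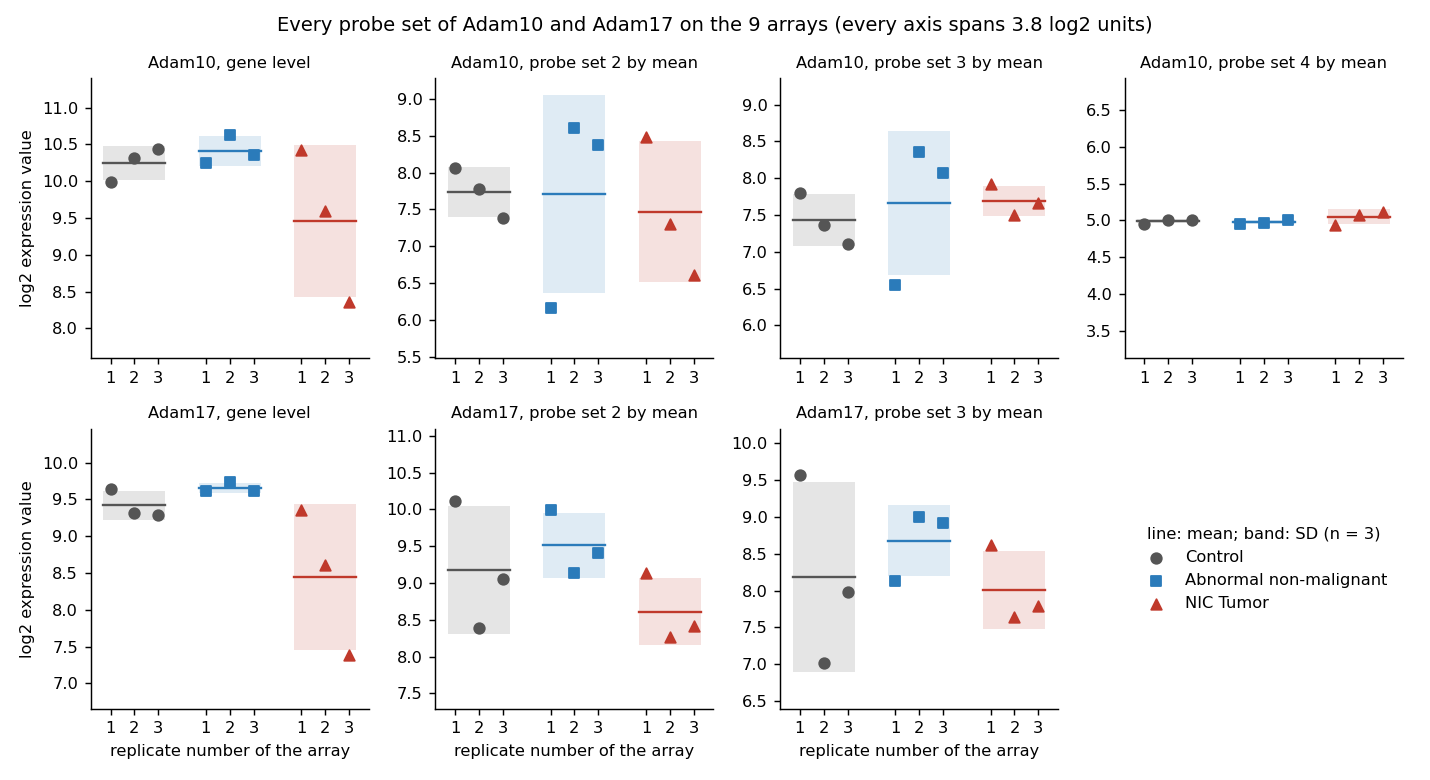
Log2 values (y axis) of the 4 probe sets of Adam10 and the 3 of Adam17 on the 9 arrays (x axis, replicate number within each group), ordered by their mean. Points are arrays, lines are group means and bands are SDs (n = 3). NIC Tumor 3 is far under the other tumors at both gene levels and not on Adam10 probe set 3, where the tumors gave 7.92, 7.5 and 7.66.

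Among the gamma-secretase genes, Psenen, which encodes PEN-2, needed for presenilin to mature, stood lower on all 3 tumors than on the other arrays. Its only probe set gave 10.95, 10.94 and 10.81 in controls, 10.9, 10.95 and 10.87 in non-malignant samples, and 10.67, 10.68 and 10.21 in tumors. Controls and non-malignant samples overlapped and differed by 0.01 (95% interval −0.34 to 0.36, limma adjusted p = 0.996). All 3 tumors lay under both other groups, by −0.38 from controls (−0.73 to −0.03, adjusted p = 0.127) and by −0.39 from non-malignant samples (−0.74 to −0.04, adjusted p = 0.157). Without NIC Tumor 3 these differences were −0.23 and −0.24.

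Ncstn encodes nicastrin, the large glycoprotein of the complex that receives the substrate. It gave 8.15, 8.38 and 8.2 in controls, 8.37, 8.25 and 7.92 in non-malignant samples, and 8.32, 8.28 and 7.23 in tumors, and NIC Tumor 3 was the 1 array under 7.92. The difference from controls was −0.06 in non-malignant samples (95% interval −0.7 to 0.57, limma adjusted p = 0.986) and −0.3 in tumors (−0.93 to 0.33, adjusted p = 0.486). Without NIC Tumor 3 the latter was 0.05. Tumors differed from non-malignant samples by −0.24 (−0.87 to 0.4, adjusted p = 0.607), and by 0.12 without NIC Tumor 3.

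Aph1a encodes the APH-1A scaffold subunit. It gave 8.85, 8.68 and 9.01 in controls, 9.51, 8.9 and 8.99 in non-malignant samples, and 9.35, 9.45 and 9.01 in tumors, and its groups overlapped in all 3 comparisons. The differences from controls were 0.28 (95% interval −0.19 to 0.76, limma adjusted p = 0.728) and 0.42 (−0.05 to 0.9, adjusted p = 0.2), and tumors differed from non-malignant samples by 0.14 (−0.33 to 0.61, adjusted p = 0.688). Its 3 probe sets disagreed in direction, since 1 had a higher mean in non-malignant samples than in controls and 2 a lower one. With their mean as the gene level the difference was −0.01.

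The promoter of Aph1a is shown because it holds TGGGAA next to the start, beginning 3 bases before it, at chr3:95893671-95893970 (RefSeq, GRCm38.p6, plus strand), with the match in capitals.
Aph1a: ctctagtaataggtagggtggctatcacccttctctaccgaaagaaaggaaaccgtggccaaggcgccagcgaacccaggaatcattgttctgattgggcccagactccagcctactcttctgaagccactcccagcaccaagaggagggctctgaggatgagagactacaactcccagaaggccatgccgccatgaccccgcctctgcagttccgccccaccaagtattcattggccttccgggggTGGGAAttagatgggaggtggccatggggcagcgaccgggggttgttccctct
The other members with this motif in a listed promoter are Psen2 and Psenen, each in 1 of 2, and their groups, like those of Aph1a, gave no call.

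Psen2 encodes presenilin 2, a catalytic subunit. It gave 6.16, 6.31 and 6.34 in controls, 6.12, 6.22 and 6.34 in non-malignant samples, and 6.47, 6.82 and 6.12 in tumors. The tumors held both the highest and the lowest value, and the groups overlapped. The differences from controls were −0.04 (95% interval −0.45 to 0.36, limma adjusted p = 0.985) and 0.2 (−0.21 to 0.6, adjusted p = 0.473), and tumors differed from non-malignant samples by 0.24 (−0.16 to 0.65, adjusted p = 0.407). A second probe set lay between 5.34 and 5.93, with all tumors, at 5.53, 5.81 and 5.93, above all non-malignant arrays.

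**Figure D4:**
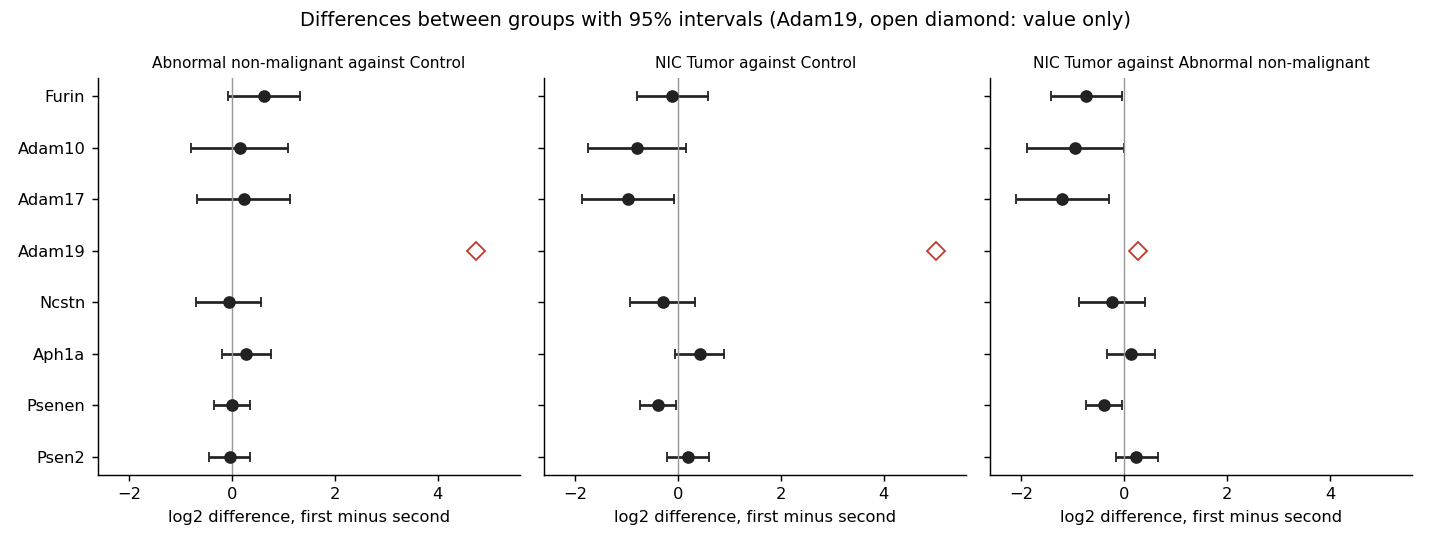
Log2 differences (x axis, first group minus second) of the 8 members (y axis) in the 3 comparisons. Points with bars are limma estimates with 95% intervals from the fit of 9 arrays, and the open diamond is the Adam19 difference, shown as a value only. The intervals of the other 7 members reach from −2.1 to 1.32, and Adam19 stands at 4.75 and 5.02 against controls.

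Several members were low on the same tumor array. At the gene level NIC Tumor 3 gave the lowest value of 5 of the 7, Adam10, Adam17, Ncstn, Psenen and, at the level of Abnormal non-malignant 1, Psen2. Over all 16 probe sets of the 7, 6 were lowest there. The other Adam17 probe sets were lowest on NIC Tumor 2 and on Control 2, and the second Psen2 probe set was highest on NIC Tumor 3, at 5.93. The share of all genes lowest on this array was not counted. Over the 9 arrays the Pearson correlation was 0.94 between Adam10 and Adam17, 0.94 between Adam17 and Psenen, 0.87 between Adam10 and Psenen and 0.8 between Ncstn and Psenen. Adam19 correlated with these 4 genes by −0.44 to −0.19. The points share arrays, and the part of the narrow spread and the high spike-in and 18S controls of NIC Tumor 3 in its low values was not tested. The genes closest to Adam17 were Phf8 (r = 0.995), Mapk9 (0.99) and Map1lc3b (0.987), all lowest on NIC Tumor 3, at 7.11, 6.77 and 9.87. Those closest to Adam10 were Dennd1b (0.989), Rnf103 (0.988) and Rbm18 (0.988), and to Ncstn Trp53bp1 (0.962), Uvssa (0.961) and Gucy1b1 (0.956), which were also lowest there. Furin was followed most closely by Rnf8 (0.945), Surf1 (0.929) and Top3b (0.918), which were highest on Abnormal non-malignant 1.

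Genes around the members were examined in lists of ADAM proteases, convertases, gamma-secretase subunits and modulators, sheddase partners and inhibitors, substrates and enzymes that glycosylate Notch. Across the ADAM family Adam19 was alone among the 10 genes tested in standing more than 1 above controls (log2). Of the other 9, 0 were called in non-malignant samples (1, Adam12, had an unadjusted p under 0.05) and Adam12 fell in tumors, where 2.87% of all genes rose and 0.654% fell in the former and 8.48% rose and 7.19% fell in the latter. Adam12, a sheddase of growth factors of the EGF family, gave 6.8, 7.43 and 6.39 in controls, 5.89, 5.9 and 5.94 in non-malignant samples and 4.88, 5.48 and 5.82 in tumors. Its groups did not overlap in any comparison. The difference was −1.48 in tumors (95% interval −2.12 to −0.84, limma adjusted p = 0.0101) and −0.96 in non-malignant samples (adjusted p = 0.127). Both of its probe sets were lower, but the other probe set lay under the 40th percentile on 7 of 9 arrays, among them every non-malignant and tumor array. Adam15 stood 0.52 above controls in tumors (adjusted p = 0.0901).

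Timp2 moved in the same direction as Adam19. It encodes a secreted inhibitor of matrix metalloproteases. Of the 13 sheddase partners and inhibitors tested, which include the iRhoms that carry ADAM17 and the tetraspanins that carry ADAM10, it was the 1 that passed. Timp2 passed in both groups against controls, where 2.87% of all genes rose in non-malignant samples and 8.48% in tumors. It gave 9.24, 8.65 and 8.8 in controls, 10.59, 10.77 and 10.64 in non-malignant samples and 10.93, 10.11 and 10.77 in tumors, with no overlap between controls and either group. It rose by 1.77 in non-malignant samples (95% interval 1.24 to 2.31, limma adjusted p = 0.00298) and by 1.71 in tumors (1.18 to 2.24, adjusted p = 0.00247), and the call held with any 1 array left out. All 6 Timp2 probe sets had higher means than in controls in both groups, and in 4 of 6 the groups did not overlap. In tumors 1 of these 4 lay under the 40th percentile on all 9 arrays. With the mean of its probe sets as the gene level, the Timp2 differences were smaller, 0.94 in non-malignant samples (adjusted p = 0.0186) and 0.88 in tumors (adjusted p = 0.0124). Timp3, an inhibitor of ADAM proteases, stood 0.43 higher in non-malignant samples (adjusted p = 0.0722). The list's median difference was −0.1 in non-malignant samples and 0.11 in tumors, against 0.01 and 0.06 for all genes.

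The gamma-secretase subunits and the convertases showed few calls. Of 5 subunits tested, the 4 members and Aph1b, 0 were called in any comparison by limma (1 at an unadjusted p under 0.05 in each comparison with tumors, Psenen, and 0 without them). Over all genes 3.53% were called in non-malignant samples and 15.7% in tumors against controls, and 4.23% between these 2 groups. Aph1b, a second APH-1 protein, stood at 5.62 ± 0.23, 5.62 ± 0.05 and 5.71 ± 0.1 in controls, non-malignant samples and tumors (SD, n = 3 each). Of 6 convertases tested, 0 were called in non-malignant samples by limma (1 at an unadjusted p under 0.05). In tumors 1 of 6, Mbtps1, the site-1 protease, fell by 1.02 (adjusted p = 0.0279), where 7.19% of all genes fell. That call ended without Control 1, Control 2 or NIC Tumor 3, at −0.95, −0.89 and −0.76, and the other 2 probe sets of Mbtps1 had higher means in tumors. With the mean of its probe sets as the gene level no difference remained (0, adjusted p = 0.995), and a fit of only the 2 groups gave an adjusted p of 0.0786. Pcsk7, a convertase close to furin in specificity, gave 8.81 to 8.83 in controls, 9.08 to 9.21 in non-malignant samples and 8.18 to 8.53 in tumors. It fell by 0.8 from non-malignant samples to tumors (adjusted p = 0.0277, where 1.53% of all genes rose and 2.7% fell). The call ended without Control 1 or 3, without any 1 non-malignant array or without NIC Tumor 2, at −0.83 to −0.71.

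Among 12 modulators and other intramembrane proteases, 0 were called against controls in either group by limma (1 and 3 at an unadjusted p under 0.05). Over all genes 3.53% were called in non-malignant samples and 15.7% in tumors (13.3% and 32.2% at such an unadjusted p). Ifitm3, an interferon-induced protein that also binds gamma-secretase, fell by 1.39 from non-malignant samples to tumors (adjusted p = 0.0445, where 2.7% of all genes fell). It stood at 5.78, 7.12 and 6.98 on the non-malignant arrays and 4.96 to 5.6 in tumors, and its call ended without any 1 control, Abnormal non-malignant 2 or 3, or NIC Tumor 2 or 3, at −1.57 to −1.14. Of 6 enzymes that glycosylate the Notch ectodomain, 0 were called in any comparison by limma (0, 1 and 0 at an unadjusted p under 0.05). The shares of all genes called were 3.53%, 15.7% and 4.23% (13.3%, 32.2% and 25.9% at such an unadjusted p). The largest difference from controls was that of Mfng in tumors, 0.41 (adjusted p = 0.194).

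Several substrates of these proteases rose in non-malignant samples. Of 13 tested, 3 rose there, Notch3, Cd44 and Lag3, and none fell, where 2.87% of all genes rose and 0.654% fell. In tumors 1 rose, Notch3, and 1 fell, Tnfrsf1a, where 8.48% of all genes rose and 7.19% fell. At an unadjusted p under 0.05 by limma there were 5 of 13 and 2 of 13, where 13.3% and 32.2% of all genes were. Notch3, a receptor cut by the same enzymes, gave 8.88, 8.14 and 9.09 in controls, 11.58, 11.56 and 11.58 in non-malignant samples and 11.17, 10.37 and 9.96 in tumors. It rose by 2.87 in non-malignant samples (limma adjusted p = 0.00111) and by 1.79 in tumors (adjusted p = 0.00788). Notch1 was not called in non-malignant samples, although it stood 2.86 above controls there, at 12.88, 12.97 and 12.87 against 9.81, 10 and 10.34. Its groups did not overlap in this comparison on either probe set. The fit shares 1 estimate of the spread among the 3 groups, and the SD of Notch1 in tumors was 1.96. Cd44, an adhesion receptor shed by ADAM proteases, rose by 3.09 in non-malignant samples (adjusted p = 0.0273), and its call ended without Control 2 or 3 or any 1 non-malignant array, at 2.46 to 3.36. Lag3, an inhibitory receptor shed by ADAM10 and ADAM17, rose by 3.16 (adjusted p = 0.0371). The Lag3 call was lost when any 1 of the 6 arrays compared was left out, at 3.06 to 3.36. In tumors Lag3 gave 8.85 on array 1 and 5.75 and 5.77 on arrays 2 and 3, against 6.28 to 6.69 in controls. Tnfrsf1a, a receptor for tumor necrosis factor that ADAM17 sheds, fell by 1.21 in tumors (adjusted p = 0.0139), and the call ended without Control 1, at −1.14. The list's median difference was 0.1 in non-malignant samples and 0.23 in tumors.

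**Figure D5:**
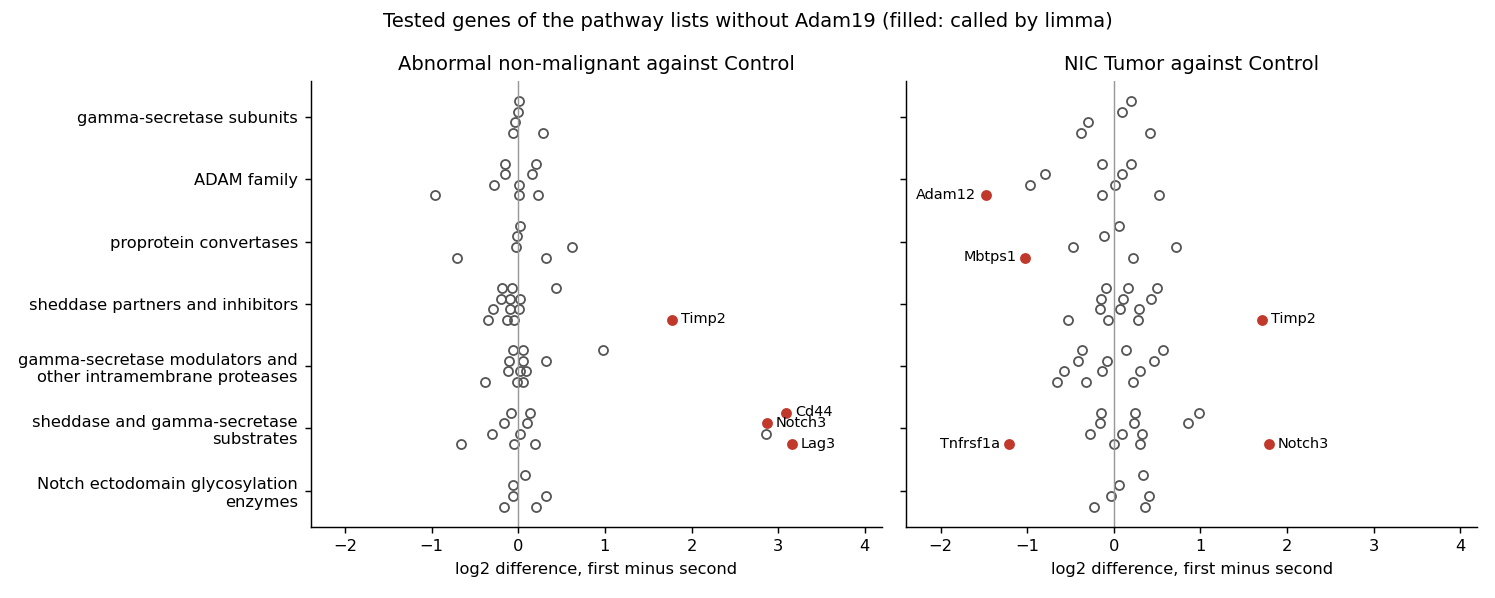
Log2 differences from controls (x axis) of the tested genes in 7 lists around the members (y axis), without Adam19. Each circle is a gene, and filled, named circles were called by limma. Timp2 rose in both groups, and Adam12 and Mbtps1 fell in tumors.

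Since the arrays measure bulk RNA, fewer cells of a type and less RNA per cell cannot be told apart for any of these genes. Some markers of other cells also stood higher in the groups where Adam19 did. Myeloid markers (12) summed to linear levels of 634 to 722 in controls, 1234 to 1402 in non-malignant samples and 852 to 2076 in tumors. Of 9 tested, 1, Ctss, rose in both groups, where 2.87% of all genes rose in non-malignant samples and 8.48% in tumors. In non-malignant samples S100a8, S100a9, Ctss, Mpo and Fcgr3 lay above all controls, by 2.76, 2.61, 2.34, 0.34 and 0.39. Lyz2, Itgam, Csf1r, Cd14, Adgre1, Elane and Cd68 overlapped with controls there. Among the tumors Ctss was highest on NIC Tumor 2, at 9.18, where Adam19 was lowest. The summed level of 6 NK cell markers was 822 to 837, 5598 to 9220 and 1431 to 8269. Of 4 tested, 3 rose in non-malignant samples (Gzma, Prf1 and Nkg7), where 2.87% of all genes rose. In tumors 2 rose (Gzma and Prf1), where 8.48% of all genes rose. Gzma, a granzyme, gave 9.2 to 9.3 in controls, 12.15 to 13.01 in non-malignant samples and 12.92, 9.96 and 12.82 in tumors. Ncr1, a receptor of NK cells, lay between 5.42 and 5.66 on all arrays, and Nkg7 at 5.7 to 6.17 in tumors against 6.09 to 6.47 in controls. Of the NK list, Klrd1 and Tbx21 lay under the 40th percentile on all arrays. B cell markers summed to 463 to 685, 718 to 827 and 394 to 641. Of 6 tested, 1 rose in non-malignant samples, Cd22, with a mean of 8.78 against 6.79 in controls. Cd79b went the other way there without overlap, with a mean of 6.18 against 7.66, and was called lower in tumors. Cd79a, Ms4a1, Pax5, Blk and Ebf1 overlapped with controls in non-malignant samples. Antigen-presenting cell markers summed to 767 to 901, 888 to 1056 and 821 to 1200. The sums were 284 to 308, 419 to 442 and 365 to 956 for erythroid markers, and 603 to 710, 565 to 635 and 546 to 867 for thymic stroma. No tested marker of the antigen-presenting, erythroid or stroma lists was called against controls by limma. At an unadjusted p under 0.05 there were 0 of 6, 1 of 3 and 0 of 5 in non-malignant samples, where 13.3% of all genes were. In tumors there were 1 of 6, 2 of 3 and 0 of 5, where 32.2% of all genes were. In tumors the B cell, antigen-presenting and stroma sums overlapped with those of controls. The T lineage markers summed to 43511 to 50608, 42267 to 44959 and 22465 to 34120. Of 9 tested, 4, Cd247, Cd4, Cd5 and Thy1, fell in tumors, where 7.19% of all genes fell. In non-malignant samples 1 of 9, Cd2, rose, where 2.87% of all genes rose. The part of these cells in the values of Adam19 was not tested.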

How the data were processed

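RNA of sorted cells was taken with TRIZOL and RNeasy columns, amplified to biotin-labelled cRNA and hybridized to Affymetrix arrays, per the labels' protocols. The authors deposited a value for each of 45101 probe sets, taken here as log2 from their range (2.68 to 14.57). Their background correction, normalization and summarization are not given in the sources used here. Array medians lay between 5.67 and 5.77. Precision is limited by having 3 arrays a group.

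Of the probe sets, 34945 carry 1 gene symbol, 932 several and 9160 none; only the first were used, named by Entrez ID in RefSeq where possible. Genes were kept for testing when 3 or more arrays had their probe set over that array's 40th percentile (13296 genes, among them all 8 members). Models were fitted in R 4.3.3 with limma 3.58.1 to all 9 arrays, with 1 mean per group, two-sided, and a variance trend in the empirical Bayes step (residual df 6, prior df 3.6); tables were made with Python 3.11.15 and pandas 2.3.3. The fit was tested on simulated data. Members and gene lists were chosen with earlier results of these data known. The rule for named genes takes all members, the measured gamma-secretase genes, from every list the 3 lowest adjusted p-values in each comparison, and the 3 genes closest to each member that spans at least 1 log2 unit; not all are printed. Lists received counts and medians only. The 11 alternatives that keep all arrays (quantile normalization, median scaling, no filter, a filter at the 60th percentile, the mean of a gene's probe sets, robust empirical Bayes, no variance trend, array weights, only the groups compared, a replicate block, and Abnormal non-malignant 2 and 3 averaged) and the 9 fits that leave out 1 array are described in the closing section.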

Additional observations from a re-analysis of the deposited data

How the results depend on the processing

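The count of called members other than Adam19 was 0 in all 3 comparisons and stayed 0 under 10 of the 11 settings that keep all arrays. Weights for each array gave 3 in tumors against controls (Adam17, Aph1a and Psen2) and 4 in tumors against non-malignant samples (these and Adam10), with weights of 0.18 on NIC Tumor 3 and 0.24 on NIC Tumor 1 against 4.65 on Abnormal non-malignant 3. The same fit called 36.7% and 42.9% of all genes in these comparisons. Leaving out 1 array gave 0 to 2 in both comparisons with tumors, the 2 coming without NIC Tumor 1. Under array weights Adam19 differed by 3.94 from controls to tumors and by −1.16 from non-malignant samples to tumors.

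Over all genes, limma called 469 for non-malignant samples and 2083 for tumors, each set against controls, and 562 for tumors set against non-malignant samples. Array weights gave 2421, 4885 and 5700, and fits of only the groups compared gave 1119, 841 and 110. Averaging Abnormal non-malignant 2 and 3 gave 218 in the first and 73 in the last. With 1 array left out the counts ran from 205 to 708, from 926 to 4121 and from 53 to 3400. They moved by over 1.5 times without any 1 control or NIC Tumor 1 in all 3, without Abnormal non-malignant 2 or 3 in the first, without NIC Tumor 2 in the second, and without every array in the third. With the replicate number as a block the counts were 399, 1915 and 287. Same-numbered arrays deviated together only in part (correlations of −0.05 to 0.22, with 3 of 6 arrays closest to their own number in each comparison), so the numbers were not taken as pairs. The block called 0 of the 7 members, and with it Lag3 in non-malignant samples had an adjusted p of 0.0582 and Pcsk7 between tumors and non-malignant samples 0.0569.

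Differences near 0 changed sign, none of them called in either direction. In non-malignant samples against controls, Psen2 was 0.02 with array weights and 0.01 without Abnormal non-malignant 1. Psenen was −0.05 with quantile normalization, −0.04 without Control 3 and −0.02 without Abnormal non-malignant 2. Ncstn was 0 without Control 2 and 0.07 without Abnormal non-malignant 3, and Aph1a −0.01 as the mean of its probe sets. In tumors against controls, Furin was 0.07 with array weights and 0.13 without Control 2, and Ncstn 0.05 without NIC Tumor 3. In tumors against non-malignant samples, Ncstn was 0.13 with array weights and 0.12 without NIC Tumor 3. Over all fits without 1 array, these differences ran from −0.1 to 0.01 for Psen2, from −0.04 to 0.03 for Psenen and from −0.16 to 0.07 for Ncstn in the first comparison. They ran from −0.27 to 0.13 for Furin and from −0.49 to 0.05 for Ncstn in the second, and from −0.42 to 0.12 for Ncstn in the third. The cause of these changes was not tested. Signal near background limits the second probe set of Adam19 in controls.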
